A study of Homo sapiens with 8 samples.

Results

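The insulin-like growth factor (IGF) binding proteins IGFBP1 to IGFBP7, the ligand IGF2 and the receptors IGF1R and IGF2R were examined in UWB1.289 cells, a human line from an ovarian carcinoma. These 10 genes were taken by symbol from a table of 25369 named genes, and 8 of them passed the filter on low counts, as did 17714 genes in all. The family was chosen by the measured difference between the lines, in which IGFBP5 was among the largest, so differences between the lines are given for all 10 genes as a description, without a test. Poly(A) RNA had been sequenced in 8 libraries that formed 4 groups of 2. BRCA1-null cells are UWB1.289 itself, which carries no functional BRCA1, and BRCA1+ cells are the same line transduced with wild-type BRCA1. Each line was kept for 24 h in the vehicle DMSO (control) or in 0.5 uM entinostat, a benzamide drug that blocks class I histone deacetylases. Each BRCA1 status is represented by a single line, so effects of BRCA1 and other differences between the lines cannot be told apart. Nothing in the labels tells whether replicates were separate cultures, so p-values measure only the spread between these samples, which may be technical.

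IGF1 and IGF2 signal through IGF1R, a receptor tyrosine kinase, and closely related insulin receptors. The IGFBPs are secreted carriers that bind IGFs, keep them from the receptor or release them after proteolysis, and several also bind matrix or integrins. IGF2R, the mannose 6-phosphate receptor, takes IGF2 up for degradation and has no kinase. In epithelial ovarian cancers this axis is known as a growth and survival pathway.

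Total counts ranged from 31900158 to 53549893 per library, and a count of 3, taken as the floor that a count of 0 allows, corresponded to 0.0552 to 0.0946 CPM (the count scaled to a common library size, with factors from the trimmed mean of M values). Such floors cover counting error only. BRCA1, examined as a check of the labels, had 3954 to 5473 counts in the BRCA1+ libraries and 800 to 1218 in the BRCA1-null libraries, without overlap. Of the ovarian and epithelial markers, PAX8, SOX17, MUC16, EPCAM and 4 keratins were abundant in every library, whereas WT1 had 1 to 20 counts. Of these 9 markers, WT1 and KRT7 were called as lower and KRT8 as higher in BRCA1-null cells in DMSO (-2.87 ± 0.662, -0.44 ± 0.135 and 0.18 ± 0.0567 on the log2 scale, ± SE). Entinostat raised KRT8, KRT18 and KRT19 in BRCA1+ cells (0.24 ± 0.0567, 0.22 ± 0.0629 and 0.57 ± 0.0543) and KRT19 in BRCA1-null cells (0.43 ± 0.0542). Of 6 fibroblast markers DCN, LUM and COL3A1 had 0 counts in every library, and the summed level of the list was 4.07 to 4.48, 14.9 to 15.8, 9.14 to 9.16 and 17.5 to 22.6 CPM in BRCA1+ control, BRCA1+ entinostat, BRCA1-null control and BRCA1-null entinostat libraries. Sums of 5 leukocyte markers were 13.9 to 14.0, 18.8 to 20.4, 26.7 to 27.3 and 29.6 to 37.3 CPM, with CD3E at 0 to 4 counts, and those of 4 endothelial markers 9.48 to 16.2, 27.3 to 38.3, 36.6 to 54.3 and 75.1 to 92.9 CPM, with CDH5 at a mean of 5.49, 23.4, 36.8 and 73.4 CPM and PECAM1 at 5.42, 6.67, 2.87 and 3.61 CPM. Between the lines in DMSO 1 of 2 tested fibroblast, 2 of 4 leukocyte and 3 of 4 endothelial markers were called as higher in BRCA1-null cells. Entinostat raised 2 of the fibroblast and 1 of the endothelial markers in BRCA1+ cells, and 1 of each in BRCA1-null cells. The part of these genes in the results on the IGF genes was not tested.

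IGFBP5 carried the widest difference of the family. It binds IGFs and components of the extracellular matrix. Its gene lies on the minus strand of chromosome 2 (217536828 to 217560272, hg19), and its model is 6239 bases long. In the BRCA1+ libraries the level was 432 and 511 CPM with DMSO and 303 and 380 CPM with entinostat, and in the BRCA1-null libraries it was 6.53 and 5.63 CPM with DMSO and 5.50 and 3.98 CPM with entinostat. The lines were thus separated by a wide gap under both treatments, while the transcript remained well above the floor in BRCA1-null cells, with 166 to 306 counts. The difference in DMSO was -6.28 ± 0.171 (SE) on the log2 scale, a 77.9-fold lower level in BRCA1-null cells, and -6.16 ± 0.176 in entinostat. Ranked among 10525 genes whose log2 CPM averaged 3 or more, this was the third lowest log2 difference in each treatment. In bulk RNA, fewer cells with the transcript and less transcript per cell cannot be told apart.

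The bases just upstream of the deposited gene start are shown for IGFBP5 and for IGFBP3 and IGFBP6, the members called with entinostat in both lines. Each sequence is the 250 bases before the start, 5′ to 3′ on the strand of the gene, read from GRCh37 (the same coordinates as hg19). Capitals mark CpG dinucleotides. The positions are chr2:217560273-217560522, minus strand, for IGFBP5, chr7:45960872-45961121, minus strand, for IGFBP3 and chr12:53491186-53491435, plus strand, for IGFBP6.
IGFBP5: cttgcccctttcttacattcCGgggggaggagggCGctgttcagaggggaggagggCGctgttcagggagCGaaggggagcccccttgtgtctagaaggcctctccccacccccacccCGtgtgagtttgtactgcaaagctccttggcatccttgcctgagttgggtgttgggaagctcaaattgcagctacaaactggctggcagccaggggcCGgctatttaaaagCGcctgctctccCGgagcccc
IGFBP3: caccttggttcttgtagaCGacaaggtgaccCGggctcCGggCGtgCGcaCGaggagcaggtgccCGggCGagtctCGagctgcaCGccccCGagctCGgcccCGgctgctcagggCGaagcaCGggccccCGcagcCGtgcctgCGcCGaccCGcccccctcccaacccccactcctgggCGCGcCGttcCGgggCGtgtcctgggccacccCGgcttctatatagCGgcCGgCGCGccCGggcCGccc
IGFBP6: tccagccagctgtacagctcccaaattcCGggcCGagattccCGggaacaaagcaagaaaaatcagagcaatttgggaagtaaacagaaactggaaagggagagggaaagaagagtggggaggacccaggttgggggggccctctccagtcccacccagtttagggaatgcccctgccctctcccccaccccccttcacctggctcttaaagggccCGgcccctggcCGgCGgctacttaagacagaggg
These windows held 8 CpG in IGFBP5, 32 in IGFBP3 and 6 in IGFBP6, against a median of 12 over 25051 such windows of the table. Across the 10 members the number ranged from 4 in IGF2 to 48 in IGF1R. The GC box GGGCGG, searched on both strands, was present in 6 of the 10 windows, with 2 matches in IGFBP3 and 0 in IGFBP5 and IGFBP6, and in 45.1% of all windows. The letters TATAAA, searched on both strands, were in 0 of the 10 windows and in 10.1% of all windows. No chromatin data were analysed here, and the matches describe letters only.

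IGFBP2 and IGFBP7 were, like IGFBP5, lower in BRCA1-null cells. IGFBP2, a carrier with an integrin-binding motif, is the neighbour of IGFBP5, with 7669 bases between the ends of the genes. Its BRCA1+ libraries had 165 and 166 CPM with DMSO and 194 and 220 CPM with entinostat, and its BRCA1-null libraries 100.2 and 102 CPM with DMSO and 115 and 118 CPM with entinostat. All 4 BRCA1-null libraries lay below all 4 BRCA1+ libraries, by -0.71 ± 0.0664 on the log2 scale in DMSO and -0.82 ± 0.0663 in entinostat. IGFBP7, a secreted relative with lower affinity for IGFs, had 94.3 and 83.3 CPM with DMSO and 119 and 109 CPM with entinostat in the BRCA1+ libraries, and 39.4 and 29.0 CPM with DMSO and 46.9 and 32.8 CPM with entinostat in the BRCA1-null libraries. It was lower in every BRCA1-null library, by -1.38 ± 0.173 in DMSO and -1.52 ± 0.172 in entinostat. IGFBP7 (chromosome 4, 57897237 to 57976551) overlaps the ends of POLR2B and of its antisense gene IGFBP7-AS1 on the opposite strand, and the use of strand in counting was not stated, so a part of its reads is uncertain.

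IGFBP3, IGFBP4 and IGFBP6 went the other way, higher in BRCA1-null cells. IGFBP3, the main carrier of IGFs in serum, had 113 and 120 CPM with DMSO and 60.8 and 69.3 CPM with entinostat in the BRCA1+ libraries, and 188 and 179 CPM with DMSO and 155 and 138 CPM with entinostat in the BRCA1-null libraries. Its difference between the lines was 0.66 ± 0.0808 in DMSO and 1.17 ± 0.0838 in entinostat. IGFBP4, an inhibitory carrier that the protease PAPPA cleaves, had 67.7 and 39.3 CPM with DMSO and 76.6 and 51.6 CPM with entinostat in the BRCA1+ libraries, and 153 and 131 CPM with DMSO and 170 and 152 CPM with entinostat in the BRCA1-null libraries. The BRCA1+ control replicates of IGFBP4 lay apart, yet both stayed below the BRCA1-null libraries. Its difference was 1.41 ± 0.237 in DMSO and 1.34 ± 0.236 in entinostat. IGFBP6, which prefers IGF2 over IGF1, had 5.10 and 3.92 CPM with DMSO and 9.52 and 8.86 CPM with entinostat in the BRCA1+ libraries, and 19.4 and 14.7 CPM with DMSO and 28.6 and 23.0 CPM with entinostat in the BRCA1-null libraries. Its 4 groups did not overlap and were ordered by line first and by treatment within each line. The difference between the lines was 1.92 ± 0.194 in DMSO and 1.496 ± 0.171 in entinostat.

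**Figure D1:**
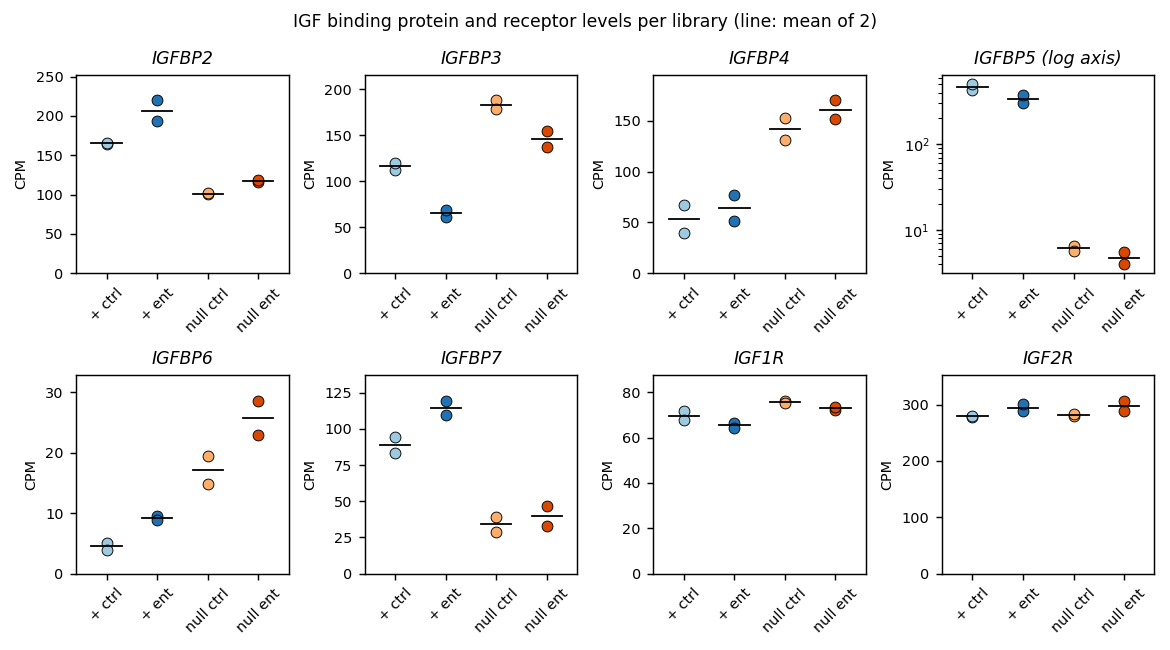
Level (CPM) of the 8 members past the filter in each of the 8 libraries, in BRCA1+ control (+ ctrl), BRCA1+ entinostat (+ ent), BRCA1-null control and BRCA1-null entinostat cells. Points are libraries and lines the mean of 2, the axis of IGFBP5 is logarithmic and the others start at 0. IGFBP5 lies at 432 and 511 CPM in BRCA1+ and at 6.53 and 5.63 CPM in BRCA1-null control cells, whereas IGF2R stays between 278 and 307 CPM.

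The receptors differed little between the lines. IGF1R had 71.5 and 67.9 CPM with DMSO and 66.4 and 64.3 CPM with entinostat in the BRCA1+ libraries, and 76.2 and 75.3 CPM with DMSO and 72.0 and 73.7 CPM with entinostat in the BRCA1-null libraries. The BRCA1-null libraries lay just above the BRCA1+ libraries, by 0.12 ± 0.0589 in DMSO and 0.16 ± 0.0597 in entinostat on the log2 scale. IGF2R had 278 and 280 CPM with DMSO and 289 and 300 CPM with entinostat in the BRCA1+ libraries, and 280 and 283 CPM with DMSO and 289 and 307 CPM with entinostat in the BRCA1-null libraries. The lines overlapped for IGF2R, with differences of 0.012 ± 0.0518 in DMSO and 0.015 ± 0.0519 in entinostat. Per length, IGF2R stood above IGF1R in every library, with a ratio of RPKM (CPM per kilobase of gene model) from 4.95 to 6.29. IGF1R contains MIR4714, and IGF2R overlaps AIRN on the opposite strand and LOC729603, which had 7 to 20, 101 to 210 and 129 to 270 counts, so reads of these genes may be counted more than once.

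The ligand IGF2 and the carrier IGFBP1 were at the limit of detection. IGF2 had 3 and 1 counts with DMSO and 0 and 0 with entinostat in the BRCA1+ libraries, and 1 and 2 with DMSO and 4 and 6 with entinostat in the BRCA1-null libraries. The counts of INS-IGF2, a read-through gene that shares exons with IGF2 (chromosome 11, 2150347 to 2170833), were identical in every library, so both entries rest on the same reads as far as the counts show. IGFBP1, a carrier made mainly by liver and decidua, had 0 and 0 counts with DMSO and 1 and 0 with entinostat in the BRCA1+ libraries, and 4 and 3 with DMSO and 6 and 2 with entinostat in the BRCA1-null libraries. In DMSO the mean of the BRCA1-null libraries was 1.02 times the level of BRCA1+ control set to 3 counts per library. That value takes the BRCA1-null counts of 4 and 3 as exact and sets each BRCA1+ control library to the floor singly. It therefore cannot decide whether the lines differ. Every BRCA1-null library had more counts (2 to 6) than any BRCA1+ library (0 to 1). At so few counts this is a description only, and the difference was not tested. IGFBP1 and IGFBP3 are neighbours on chromosome 7, with 18576 bases between them, and differed widely in level in all libraries.

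Set side by side, 4 of the 8 members were at least 2-fold apart between the lines in DMSO with no overlap of libraries (IGFBP4 and IGFBP6 higher, IGFBP5 and IGFBP7 lower in BRCA1-null cells), where 14.8% of all 17714 genes met the same description, 10.3% higher and 4.51% lower. In entinostat 5 members did, IGFBP3 being added, against 12.1% of all genes, 7.76% higher and 4.38% lower. Without the 2-fold limit, 7 of the 8 did not overlap between the lines in DMSO and 7 in entinostat, beside 70.9% and 69.5% of all genes. For the 7, all members tested except IGF2R, the 4 BRCA1-null libraries did not overlap the 4 BRCA1+ libraries (40.1% of all genes). Because the choice of the family rested on this comparison, nothing is read from these counts.

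Length-scaled levels described the composition of the binding proteins in each line. Summed over the 7 IGFBP genes, the BRCA1+ libraries held 334 and 329 RPKM with DMSO and 342 and 356 RPKM with entinostat, and the BRCA1-null libraries 261 and 236 RPKM with DMSO and 282 and 252 RPKM with entinostat. The summed level was therefore lower in every BRCA1-null library. IGFBP5 alone gave 69.3 and 81.9 RPKM of it in BRCA1+ control and 1.05 and 0.902 RPKM in BRCA1-null control libraries. With entinostat IGFBP5 gave 48.5 and 60.9 RPKM in BRCA1+ and 0.882 and 0.637 RPKM in BRCA1-null libraries. Because the line difference of IGFBP5 entered the choice of the family, nothing is read from the sums or shares between the lines. IGFBP5 made up 22.8% ± 2.98 (SD, n = 2) of the sum in BRCA1+ control and 0.392% ± 0.0133 in BRCA1-null control cells, and 15.6% ± 2.05 and 0.283% ± 0.0427 in entinostat. IGFBP3 and IGFBP4 had larger shares in BRCA1-null cells. IGFBP3 was 13.3% ± 0.738 of the sum in BRCA1+ control and 28.1% ± 1.03 in BRCA1-null control, and IGFBP4 was 7.20% ± 2.62 and 25.5% ± 0.899. IGFBP2 had the highest mean share in each group, though in BRCA1-null control cells it exceeded IGFBP3 by less than its SD, with 34.9% ± 0.661, 41.4% ± 2.49, 28.5% ± 2.29 and 30.7% ± 2.94 in BRCA1+ control, BRCA1+ entinostat, BRCA1-null control and BRCA1-null entinostat. Shares depend on the deposited gene lengths, and no test of them is given. Between the lines, that is because the choice of the family used their difference. Between 2 groups of 2 libraries, an exact permutation test cannot reach a p under 0.05.

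**Figure D2:**
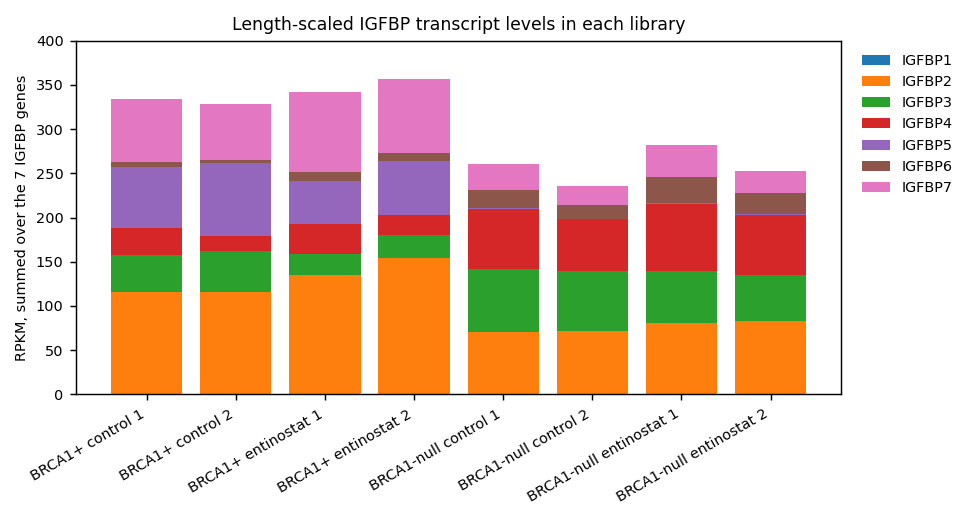
Stacked levels of the 7 IGFBP genes in each of the 8 libraries, in RPKM from 0, with the height of each colour giving the level of 1 gene. IGFBP5 holds 22.8% of the sum in BRCA1+ control and 0.392% in BRCA1-null control cells, while IGFBP3 and IGFBP4 widen.

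The family was chosen by the difference between the lines, not by the response to entinostat, though with earlier results of these data known. That response was tested within each line. In BRCA1+ cells entinostat raised IGFBP6 and IGFBP2 and lowered IGFBP3 and IGFBP5. IGFBP6 rose by 1.03 ± 0.217 on the log2 scale (2.04-fold, adjusted p 0.0157), from 4.51 ± 0.835 to 9.19 ± 0.470 CPM (SD, n = 2). IGFBP2 rose by 0.32 ± 0.0655 (adjusted p 0.0134). IGFBP3 had the lowest adjusted p of the family, 7.58e-04, and fell by 0.83 ± 0.0839, from 116 ± 4.97 to 65.1 ± 6.02 CPM. IGFBP5 fell by 0.47 ± 0.124 (adjusted p 0.0371), which leaves it far above the level of BRCA1-null cells. This contrast shares the BRCA1+ control libraries with the comparison of the lines that singled out IGFBP5. In all, 4 of 8 tested members were called, 2 higher and 2 lower, where 14.1% of all 17714 genes were called, 8.15% higher and 6% lower. Replicates with and without entinostat did not overlap for 7 of the 8, as for 57% of all genes.

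The other members were not called in BRCA1+ cells. IGFBP7 had a log2 fold change of 0.36 ± 0.165 (adjusted p 0.180, and 0.0236 in a fit on only the groups compared, where it was called) and IGFBP4 one of 0.26 ± 0.242 (adjusted p 0.542). For the receptors the 95% intervals were narrow, from -0.23 to 0.042 for IGF1R and from -0.040 to 0.19 for IGF2R. The median log2 fold change over the 8 members was 0.17, beside 0.00041 over all genes. Among the alternative settings, a further demand of an unadjusted p under 0.01 could not remove an entinostat call. Of the called members, IGFBP3 was called under all 16 alternative settings, whereas IGFBP2, IGFBP5 and IGFBP6 each lost the call without BRCA1+ control replicate 2 (adjusted p 0.0666, 0.201 and 0.108), which left 1 call. IGFBP2 was also not called without BRCA1+ control replicate 1 (0.0660) or BRCA1+ entinostat replicate 2 (0.112), IGFBP5 without BRCA1+ entinostat replicate 1 (0.220) and IGFBP6 without either BRCA1+ entinostat library (0.0755 and 0.0777), so that leaving out either entinostat library gave 2 calls. IGFBP5 was also not called by the DESeq2 Wald test (adjusted p 0.124) or with upper-quartile factors (adjusted p 0.0580).

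In BRCA1-null cells 2 of the 8 members were called, against 10.8% of all genes (7.57% higher and 3.19% lower), and these were IGFBP6 and IGFBP3. Libraries with and without entinostat did not overlap for 6 of the 8, as for 54.7% of all genes. IGFBP6 rose by 0.60 ± 0.153 (1.52-fold, adjusted p 0.0385), from 17.1 ± 3.32 to 25.8 ± 3.96 CPM. IGFBP3 fell by 0.32 ± 0.0801 (adjusted p 0.0354), from 183 ± 6.21 to 146 ± 12.4 CPM. For IGFBP2 the value was 0.21 ± 0.0666 (adjusted p 0.0752), and for IGFBP5, measured on far fewer counts here, -0.34 ± 0.220 (adjusted p 0.359). IGFBP4 and IGFBP7 had 0.18 ± 0.225 and 0.23 ± 0.178, and IGF1R and IGF2R -0.057 ± 0.0587 and 0.081 ± 0.0518, all without a call. The median over the members was 0.13, beside 0.019 over all genes. Both calls rested on single libraries: IGFBP3 was not called when any of the 4 BRCA1-null libraries was left out (adjusted p 0.0544 to 0.158), and IGFBP6 was not called without BRCA1-null control replicate 2 (adjusted p 0.204), BRCA1-null entinostat replicate 1 (0.211) or either BRCA1+ entinostat library (0.0650 each). Leaving out BRCA1-null control replicate 2 or BRCA1-null entinostat replicate 1 thus left 0 calls, and so did a fit on only the groups compared.

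**Figure D3:**
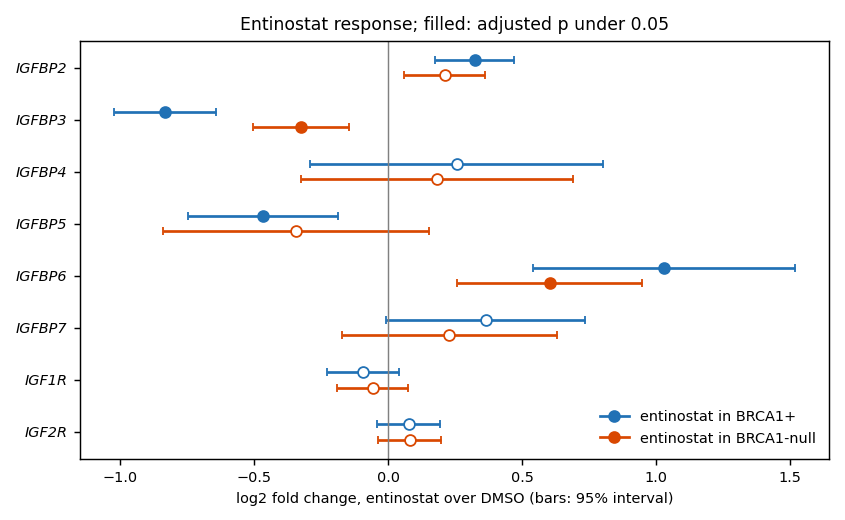
Log2 fold change of entinostat over DMSO for the 8 tested members in BRCA1+ (blue) and BRCA1-null (orange) cells, with 95% intervals; filled points had an adjusted p under 0.05. IGFBP6 lies at 1.03 and 0.60 and IGFBP3 at -0.83 and -0.32, the only genes filled in both lines.

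Whether the responses differed between the lines was tested by the interaction, the entinostat effect in BRCA1-null minus that in BRCA1+ cells. It was called for 0 of the 8 members with edgeR and 0 with DESeq2, as for 0% of all genes with edgeR, and 1 member, IGFBP3, had an unadjusted p under 0.05, as did 4.67% of all genes. For IGFBP3 (-0.83 in the BRCA1+ and -0.32 in the null line) the interaction was 0.51 ± 0.116 with a 95% interval of 0.25 to 0.77 and an adjusted p of 0.967 (0.0907 to 1 over the alternatives). For IGFBP6 it was -0.43 ± 0.267, with an interval of -1.03 to 0.17. For IGFBP5 it was 0.12 ± 0.254, with an interval of -0.45 to 0.70. A difference in response was therefore not shown for any member, and the intervals for IGF1R (-0.15 to 0.23) and IGF2R (-0.16 to 0.17) were the tightest.

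The surroundings of IGFBP5 and the genes most like it in pattern were then listed, as a description. The nearest tested genes below IGFBP5 on chromosome 2 after IGFBP2 are RPL37A and SMARCAL1, and those above it are TNS1, CXCR2 and ARPC2, at 1104240 to 1521545 bases. RPL37A, a ribosomal protein gene, SMARCAL1, a DNA annealing helicase, and ARPC2, an actin nucleation subunit, had log2 differences between the lines in DMSO of -0.10 ± 0.0643, -0.17 ± 0.0777 and 0.018 ± 0.0593 (adjusted p 0.230, 0.107 and 0.839). TNS1, which links integrins to actin, was higher in BRCA1-null cells by 2.46 ± 0.277 (adjusted p 1.35e-04). CXCR2, a chemokine receptor at under 1 CPM, was higher by 1.495 ± 0.418 (adjusted p 0.0184), a call lost with the DESeq2 Wald test (adjusted p 0.177) and without BRCA1+ control replicate 2 (0.131) or BRCA1-null control replicate 2 (0.103). None of these 5 genes, and not IGFBP2 either, had a difference of the size seen for IGFBP5.

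Likeness was measured as the root mean square difference of log2 CPM over the 8 libraries, each gene centred on its own mean, taking the 10524 other genes whose log2 CPM averaged 3 or more. The closest were NPR3 (0.57), a clearance receptor for natriuretic peptides, RUNX3 (0.69), a transcription factor, ABCA4 (0.73), a lipid transporter, MYBPC2 (0.79), a myosin-binding protein, and KCNIP1 (0.87), a potassium channel partner. They lie on chromosomes 5, 1, 1, 19 and 5, none on that of IGFBP5. NPR3 went from 196 CPM in BRCA1+ control to 2.85 CPM in BRCA1-null control, beside 472 and 6.08 CPM for IGFBP5.

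The other genes of the pathway were taken from lists of 51 genes, of which 43 were tested. The lists were set with earlier results of these data known, so no excess of calls is read from their shares. Calls between the lines in DMSO numbered 23 of the 43, of which 7 were higher and 16 lower in the null line, where 42.2% of all genes were called (21.1% higher and 21% lower). The median log2 difference of the list was -0.060, beside 0.012 over all genes. In entinostat 20 were called, 6 higher and 14 lower, against 39.4% of all genes (20.5% higher and 18.9% lower), with a median of -0.046 beside 0.019. These counts were 15 in DMSO without BRCA1+ control replicate 2 and 13 in entinostat without BRCA1+ entinostat replicate 2.

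Among ligands and receptors outside the family, INSR, the insulin receptor, and IGFBPL1, a secreted relative of the IGFBPs, were called as lower in BRCA1-null cells. They were 2 of 3 tested (66.7%, beside 42.2% of all genes called in DMSO and 39.4% in entinostat). The log2 difference of INSR was -2.82 ± 0.244 with DMSO (adjusted p 3.09e-05) and -2.82 ± 0.227 with entinostat (adjusted p 2.28e-05), with 244 and 244 counts in the BRCA1+ control and 37 to 43 in the BRCA1-null control libraries. IGFBPL1, named after its values were seen, had -1.19 ± 0.209 and -1.09 ± 0.201 (adjusted p 0.00173 and 0.00231). IGF1, the other ligand, had 49 to 51 counts in BRCA1+ control and 78 to 88 in BRCA1-null control libraries and was not called. INS, INSRR and IGFALS, the last encoding the subunit that joins IGFBP3 and IGF in serum complexes, did not pass the filter.

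The proteases that cleave IGFBPs and their inhibitors were called in 8 of 10 tested genes in DMSO, 4 higher and 4 lower, beside 42.2% of all genes. Because this list too was set with earlier results known, the share is a description only. MMP2, a gelatinase, was at 0.364 ± 0.0519 CPM in BRCA1+ control and at 44.7 ± 0.966 CPM in BRCA1-null control cells, a log2 difference of 6.94 ± 0.201 (adjusted p 1.06e-07), and one of 6.24 ± 0.189 in entinostat (adjusted p 1.31e-07). PAPPA2, a protease that cleaves IGFBP5, was higher by 2.98 ± 0.185 in DMSO (adjusted p 5.42e-06) and by 2.88 ± 0.197 in entinostat (adjusted p 9.74e-06). PAPPA, its relative that cleaves IGFBP4, went the other way, with -0.99 ± 0.286 and -1.24 ± 0.289 (adjusted p 0.0206 and 0.00798), and was named after its values were seen. In entinostat 7 of the 10 were called, 4 higher and 3 lower, beside 39.4% of all genes. ADAM28 and MMP9 were called as higher in DMSO but rested on 1 to 3 counts per BRCA1+ control library, with ratios of 14.2 (exact 95% interval 3.63 to 122) and 10.7 (4.33 to 34.0) from summed counts, counting error only. The call of ADAM28 in DMSO was lost without either BRCA1+ control library (adjusted p 0.0505 and 0.0706), and in entinostat it was higher by 3.72 ± 0.477 (adjusted p 1.29e-04). ADAM12, a protease of IGFBP3 and IGFBP5, had a log2 difference of -2.28 ± 0.317 with DMSO (adjusted p 4.53e-04) and of -1.59 ± 0.424 with entinostat (adjusted p 0.0154), the latter not called without BRCA1+ entinostat replicate 1 (0.0845) or BRCA1-null entinostat replicate 1 (0.106).

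At the IGF2 locus, H19, the imprinted noncoding RNA next to IGF2, was called as lower in the null line, with a difference of -3.43 ± 0.411 under DMSO (adjusted p 1.86e-04) and of -3.68 ± 0.492 under entinostat (adjusted p 3.68e-04). It had 49 and 74 counts with DMSO and 33 and 60 with entinostat in the BRCA1+ libraries, and 3 and 10 with DMSO and 5 and 3 with entinostat in the BRCA1-null libraries. Of the IGF2 mRNA-binding proteins, IGF2BP3, named after its values were seen, was lower by a small amount (-0.27 ± 0.0815 and -0.30 ± 0.0817, adjusted p 0.0252 and 0.0163). With H19 it made 2 of 4 tested genes called in each treatment (50%, beside 42.2% of all genes in DMSO and 39.4% in entinostat). Of the 26 tested adaptors and signalling genes, 3 were higher and 8 lower in DMSO, a share of 42.3% beside 42.2% of all genes. In entinostat 2 were higher and 7 lower, a share of 34.6% beside 39.4% of all genes. Among them were both tested substrates that carry the signal of IGF1R and INSR, named after their values were seen: IRS1 had -0.74 ± 0.0836 and -0.92 ± 0.0851 (adjusted p 1.40e-04 and 4.75e-05), and IRS2 had -0.92 ± 0.130 and -0.79 ± 0.133 (adjusted p 5.07e-04 and 0.00142). FOXO1, a transcription factor that AKT restrains, was higher by 0.89 ± 0.0771 and 0.83 ± 0.0765 (adjusted p 3.14e-05 and 4.71e-05). IGFBPL1, PAPPA, IGF2BP3, IRS1 and IRS2 were not followed singly under the alternatives. Nor were PAPPA2 in DMSO and FOXO1 between the lines, which the rule for named genes did not select for those contrasts. FOXO1 and IGF2BP2 with entinostat in BRCA1-null cells were not followed either.

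**Figure D4:**
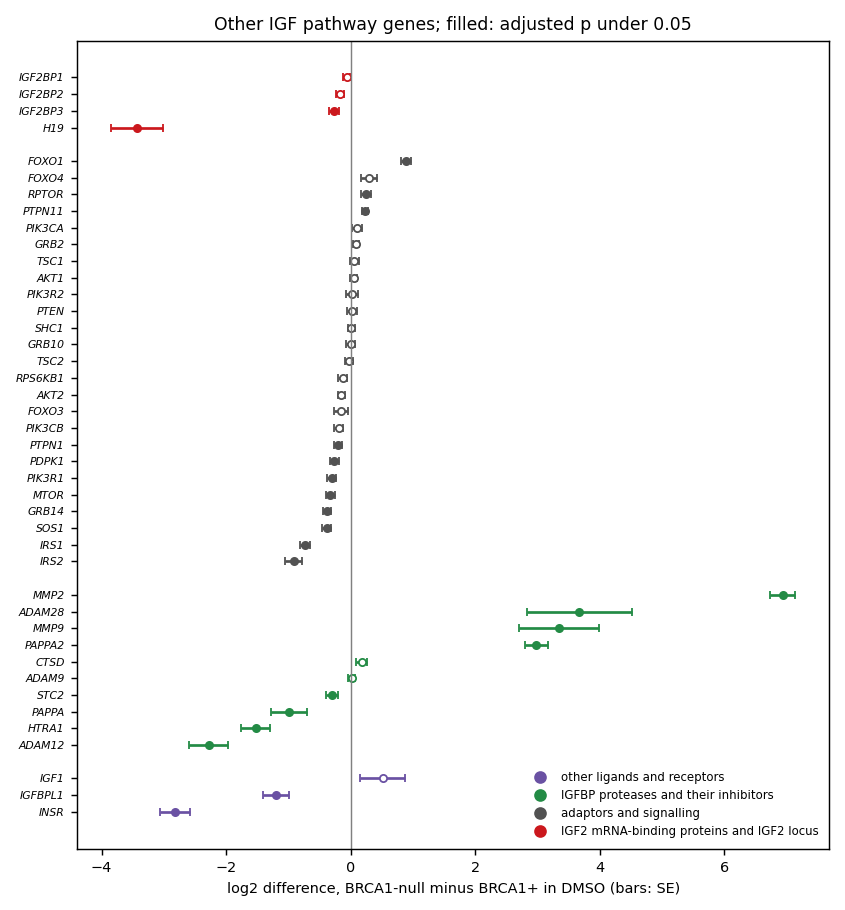
Log2 difference between BRCA1-null and BRCA1+ control cells for 42 of the 43 tested genes of the pathway lists, with SE bars, coloured by list; filled points had an adjusted p under 0.05. MMP2 stands at 6.94, H19 at -3.43 and INSR at -2.82, while most adaptors lie near 0.

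With entinostat, 11 of the 43 pathway genes were called in BRCA1+ cells, 3 higher and 8 lower, against 14.1% of all genes, with a median of -0.076. Of these, 2 were proteases or their inhibitors and 9 were adaptors and signalling genes. FOXO1 and SHC1, an adaptor, rose by 0.35 ± 0.0786 and 0.31 ± 0.0499. ADAM12 fell by 1.13 ± 0.283, STC2, a secreted inhibitor of PAPPA, fell by 0.42 ± 0.0946, and SOS1, an activator of RAS, fell by 0.31 ± 0.0744. Adjusted p-values of these 5 genes ran from 0.00558 to 0.0303, and SHC1 was called under all 16 alternatives. The count was 4 without BRCA1+ control replicate 1 and 1 without BRCA1+ control replicate 2 or either BRCA1+ entinostat library, and STC2 and SOS1 were not called without any one of the 4 BRCA1+ libraries (adjusted p 0.0616 to 0.165), FOXO1 and ADAM12 without any one of them except BRCA1+ control replicate 1 (0.0534 to 0.242). ADAM12 was also not called by the DESeq2 Wald test (adjusted p 0.0630).

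In BRCA1-null cells 6 of the 43 were called with entinostat, 5 higher and 1 lower, against 10.8% of all genes, with a median of -0.11. SHC1 rose by 0.42 ± 0.0497 (adjusted p 0.00245) and was called under all 16 alternatives. ADAM28 rose by 1.87 ± 0.328 (adjusted p 0.00700), a call lost without BRCA1-null control replicate 2 (0.0618) or BRCA1-null entinostat replicate 1 (0.0508), with the DESeq2 Wald test (0.0919) and in a fit on only the groups compared (0.0710). GRB10, an adaptor that damps the receptors, fell by 0.26 ± 0.0694 (adjusted p 0.0450), called under 7 of 16 alternatives and lost without either BRCA1-null control library (0.0516 and 0.227), BRCA1-null entinostat replicate 1 (0.233) or any BRCA1+ library (0.0607 to 0.0713). Also called were FOXO1 (0.29 ± 0.0745, adjusted p 0.0395) and IGF2BP2, an mRNA-binding protein (0.31 ± 0.0641, adjusted p 0.0192), named after their values were seen. The count was 2 without BRCA1-null control replicate 2 and 3 without BRCA1-null entinostat replicate 1.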

How the data were processed

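The authors deposited raw counts of reads per gene symbol, without normalisation, after aligning reads to hg19 with TopHat 2 and counting with NGSUtils. How strand, multiply placed reads and reads in overlapping genes were handled was not stated. Per the file headers, the table also held hg19 positions, given here counted from 1, and gene lengths. Per the labels, all 8 libraries were grouped by title. Replicates of each group differed by more than counting noise (chi-square per degree of freedom of at least 8.18).

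Genes were kept by filterByExpr (17714 of 25369 named genes; 1 entry without a name had 0 counts), scaled by TMM and tested in one quasi-likelihood fit of the 4 groups with edgeR 4.0.16 in R 4.3.3, with 4 residual degrees of freedom. Calls needed a two-sided Benjamini-Hochberg adjusted p under 0.05 over all genes. Adjusted p-values come from this test unless DESeq2 is named, SE is the log2 fold change over the root of F, and likeness used log2 CPM with a prior count of 2.

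The members and lists were chosen with earlier results of these data known. Named genes were the members, BRCA1, for each contrast the 3 called pathway genes with the largest change each way, the 5 genes most like IGFBP5, its 3 nearest tested genes on each side, genes that overlap a member, and INS-IGF2 and H19. One gene that this rule names is not reported here. The genes of the pathway lists came from general knowledge, with the earlier results known.

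Other settings tried were scaling by DESeq2 size factors or by upper quartiles, no low-count filter, a minimum of 1 CPM in 2 libraries, the Wald test of DESeq2 1.42.0, a term for the replicate number, models of just the compared groups, a further demand of an unadjusted p under 0.01, and leaving out each library while keeping the genes. Applying them to named genes outside the family was decided after seeing the data. The scripts were tested on simulated data.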

Additional observations from a re-analysis of the deposited data

Results flagged for a closer look

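The counts of IGF2 with and without entinostat were ordered in opposite ways in the lines: both BRCA1+ entinostat libraries (0 and 0) lay below both BRCA1+ control libraries (3 and 1), and both BRCA1-null entinostat libraries (4 and 6) lay above both BRCA1-null control libraries (1 and 2). The highest count was 6, and because a count of 0 allows 3, the BRCA1+ libraries show no direction. The difference was not tested because IGF2 did not pass the filter, and INS-IGF2 had identical counts.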

How the results depend on the processing

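The counts of members at least 2-fold apart between the lines were 4 in DMSO and 5 in entinostat under every alternative except no filter on low counts, which gave 5 and 7 because IGFBP1 and IGF2, at 0 to 6 counts, then entered, and 0 interactions of members were called in any. Leaving out a library in turn, with the lone sample of a group assumed to vary like the others, gave 1 to 4 called members with entinostat in BRCA1+ cells and 0 to 2 in BRCA1-null cells, and 15 to 23, 13 to 21, 1 to 10 and 2 to 6 called pathway genes between the lines in DMSO, between them in entinostat, and with entinostat in BRCA1+ and BRCA1-null cells. A fit on only the groups compared, not possible for the interaction, gave 0 members and 3 pathway genes with entinostat in BRCA1-null cells. Of 376 values of the entinostat effects and interactions of members under an alternative, 331 kept their direction and side of the threshold, 20 lost the call, 3 gained it and 22 changed sign, and of 443 for other named genes 402 kept both, 39 lost the call and 2 changed sign. These counts include the demand of an unadjusted p under 0.01, which could not remove an entinostat call. The cause of the changes was not tested.

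Over all tested genes, same-numbered replicates deviated together weakly (correlations of 0.0523 to 0.287 over 6 pairs of groups, all positive). Single members deviated in the same direction throughout. Replicate 1 lay above replicate 2 in every group for IGFBP4, IGFBP6 and IGFBP7, and below it in every group for IGFBP2 and IGF2R. IGFBP3, IGFBP5 and IGF1R had no such constant order. The main fit held no term for the replicate number, and the numbers are not known to mark a shared culture or day. With the replicate number as a block, members called with entinostat numbered 5 in BRCA1+ cells, IGFBP7 being added (adjusted p 0.0135), and 3 in BRCA1-null cells, IGFBP2 being added (adjusted p 0.0235), and pathway genes numbered 17 and 10.

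The IGF2R interaction was -0.00586 with DESeq2 size factors, -0.039 with upper-quartile factors, -0.032 with the stricter filter and -0.00576 with the DESeq2 Wald test, and the IGF1R interaction was -0.00576 with upper-quartile factors. Without single libraries, interactions ranged from -0.52 to 0.27 for IGFBP4, from -0.14 to 0.33 for IGFBP5, from -0.42 to 0.095 for IGFBP7, from -0.0081 to 0.075 for IGF1R and from -0.041 to 0.047 for IGF2R. The entinostat effect ranged from -0.088 to 0.70 for IGFBP4 in BRCA1+ cells and from -0.055 to 0.46 for IGFBP7 in BRCA1-null cells, and the line difference from -0.029 to 0.059 for IGF2R in entinostat and from -0.026 to 0.080 for ARPC2 in DMSO. Depth limited IGF2 and IGFBP1, and IGFBP5 in BRCA1-null cells had 166 to 306 counts.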
